A study of Arabis alpina with 2 samples.

Results

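The 294 sites described here are single-base changes taken as markers of the mutagenised copies of chromosomes 1 and 3 in a pool of eop055 plants. Whether each of them came from the mutagen was not tested. The species is Arabis alpina, a perennial plant of the family of Arabidopsis. The sites were chosen from the variant list of the pool as G-to-A or C-to-T changes past minimums of 25 in variant quality and 10 in reads covering the site, at positions the list of the progenitor does not hold. They are part of 1390 such markers on all sequences, among 14923 listed sites of the pool, and 134 of them lay on chromosome 1 and 160 on chromosome 3. The rule used the change, its quality, its depth and the progenitor's list, and the chromosomes were picked with their allele frequencies known, so the values below describe these sites and carry no test.

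The pool came from flower buds of eop055BC1F2 plants in the Pajares accession, grown in long days. The eop055 mutant had been made in pep1-1, selfed, crossed back to pep1-1 and selfed once more, and plants with the mutant phenotype were taken. The progenitor library came from flower buds of pep1-1 plants in the same accession, so both groups carry pep1-1. Each group had 1 library and no replicate, and the sources used here do not give the number of plants in each. Coverage over all listed sites had medians of 106 reads in the pool and 100 reads in pep1-1. Over the 294 markers it had a median of 66 reads (interquartile range 57 to 75). The Wilson 95% interval of a single marker then reached a median of 0.112 to each side. These intervals cover the counting of reads only, and not the sampling of plants or reads copied by PCR.

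As background, alkylating mutagens modify guanine, and replication then pairs the damaged base with thymine. The change is listed as G-to-A where the damaged guanine lay on the strand of the reference sequence, and as C-to-T where it lay on the other strand. In mouse tumours, damaged strands were seen to part at the first division, so that a chromosome copy can carry long stretches of one type. In a backcrossed and selfed family an allele free of selection is expected at 0.5 where every backcrossed plant carried it. A change that only some of those plants carried is expected lower, and which sites these were was not tested. Neighbouring changes on the same copy are inherited together and so share a frequency. The mutagen is not named in the labels, and genes at the marker positions were not analysed here. Positions refer to the chromosomes of the assembly the authors used, counted from 1, and the sources used here do not name its build.

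Chromosome 1 carried mostly C-to-T changes and chromosome 3 mostly G-to-A changes. On chromosome 1, 107 of 134 markers were C-to-T, or 79.9% (Wilson 95% interval 72.3 to 85.8%), and 27 were G-to-A. On chromosome 3, 150 of 160 markers were G-to-A, or 93.8% (88.9 to 96.6%), and 10 were C-to-T. Both chromosomes thus leaned to opposite types. Elsewhere the share of G-to-A was 93.7% on chromosome 8, 81.2% on chromosome 4, 77.7% on chromosome 7, 69.8% on chromosome 2, 49.6% on chromosome 6 and 40.3% on chromosome 5.

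Runs of one type of at least 10 markers, a run meaning consecutive markers with no marker of the other type between them, took in most of chromosome 3 and less of chromosome 1. Chromosome 3 had 19 runs, of which 7 held at least 10 markers, and those 7 took in 139 of its 160 markers (86.9%). Chromosome 1 had 29 runs, of which 3 held at least 10 markers, with 61 of its 134 markers (45.5%). Elsewhere the share in runs of at least 10 was 81.4% on chromosome 6, 80.3% on chromosome 8, 77.7% on chromosome 7, 47.4% on chromosome 4, 31% on chromosome 2 and 19% on chromosome 5. The other 26 runs of chromosome 1 included 11 of a single marker, and the other 12 of chromosome 3 included 9. Where nearly all markers are of one type, as on chromosome 3 (93.8% G-to-A), long runs arise largely whatever the order. Chromosome 6 had its share in long runs at 49.6% G-to-A. How far the runs go beyond the share of each type was not tested.

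The longest run of chromosome 1 held 35 C-to-T markers over 9.22 Mb, from C10257966T at an allele frequency of 0.676 to C19477854T at 0.440. The other long runs there were also C-to-T, with 12 markers from C3278871T (0.634) to C6602242T (0.643) and 14 markers from C26641189T (0.479) to C29268916T (0.442). One run of 5 G-to-A markers, from G2163540A (0.696) to G2671821A (0.537), was the only G-to-A run of at least 5 on that chromosome. Of the 28 changes of type along the chromosome, 20 lay after 19 Mb.

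The longest run of chromosome 3 held 40 G-to-A markers over 7.84 Mb, from G126808A at an allele frequency of 0.588 to G7967725A at 0.596. Its other long runs were G-to-A too. The first of them ran over 11 markers from G9480388A (0.580) to G10897157A (0.457), and the next over 25 markers from G11035216A (0.576) to G16000409A (0.493). A run of 17 reached from G16601266A (0.577) to G19427862A (0.627), and one of 10 from G20390682A (0.604) to G22591371A (0.538). The last 2 held 23 markers from G24122792A (0.358) to G27814828A (0.348) and 13 markers from G27967134A (0.149) to G30352073A (0.477). Between them lay C-to-T markers, never more than 2 in a row, and short G-to-A runs.

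**Figure D1:**
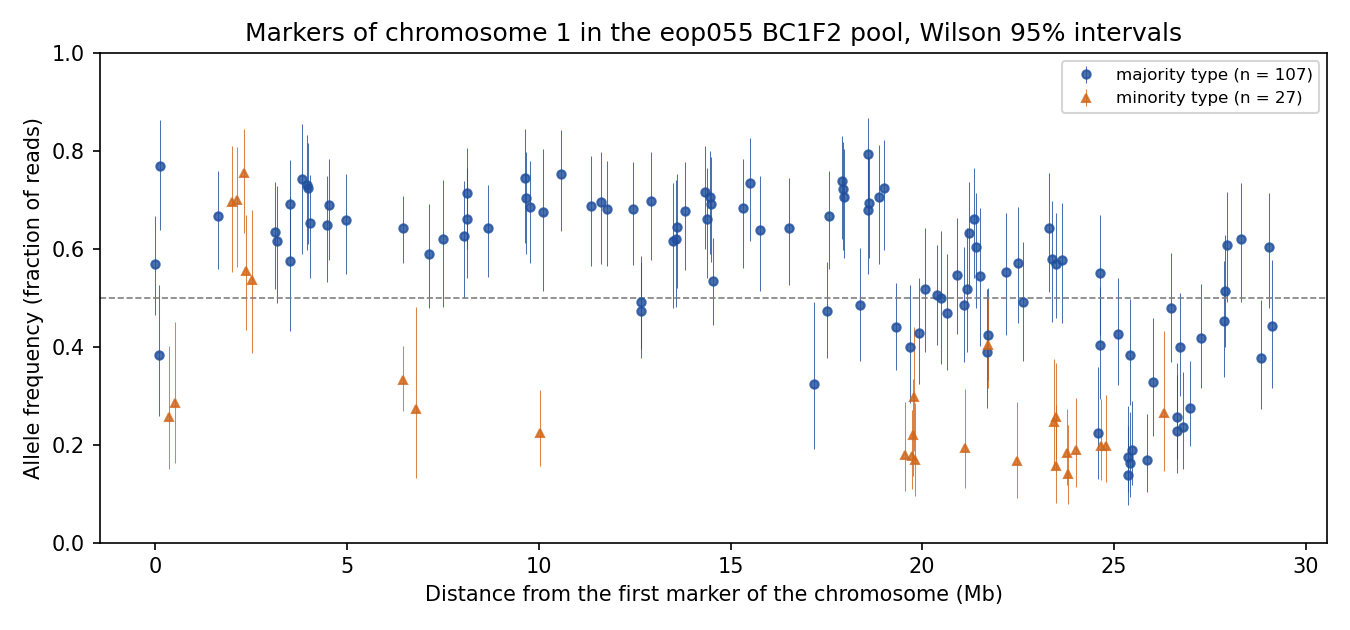
Allele frequency (fraction of reads with the changed base) of the 134 chromosome 1 markers against distance from the first marker in Mb, with Wilson 95% intervals. Blue circles are the 107 C-to-T markers and orange triangles the 27 G-to-A markers, and the dashed line is at 0.5. Most circles lie above 0.6 over the first 19 Mb, after which both types spread to lower levels.

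More markers of chromosome 1 than of chromosome 3 stood at 0.6 or more, while similar shares stood below 0.4. The median was 0.553 on chromosome 1 (interquartile range 0.378 to 0.673) and 0.512 on chromosome 3 (0.371 to 0.564). On chromosome 1, 59 of 134 markers (44.0%) stood at 0.6 or more and 37 (27.6%) below 0.4. On chromosome 3, 19 of 160 (11.9%) stood at 0.6 or more and 44 (27.5%) below 0.4. Over all 1390 markers, 22.9% stood at 0.6 or more and 23.0% below 0.4. Chromosome 8 held 178 of the 318 at 0.6 or more. The interval of the marker lay wholly above 0.5 at 50 sites of chromosome 1 and 11 of chromosome 3, and wholly below it at 36 sites of chromosome 1 and 41 of chromosome 3.

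None of the 294 markers was near fixation, taken as 0.9 or more, a level that 4.17% of all 1390 markers reached. Of these 58 markers, 40 lay on chromosome 8 and 11 on chromosome 2. Chromosomes 4 and 7 had 1 each, and chromosomes 5 and 6 had 0. The highest marker of chromosome 1 was C18746735T, with 65 of 82 reads (0.793, interval 0.693 to 0.866), followed by C266945T (0.769), G2468690A (0.754), C10735940T (0.754) and C9806499T (0.745). On chromosome 3 the highest was G2517517A, with 47 of 59 reads (0.797, 0.677 to 0.880), followed by G7539981A (0.692), G23004952A (0.656), G2111572A (0.654) and G18658430A (0.653). G2517517A stood above every other marker of its chromosome by 0.104 or more.

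The lowest markers reached down to 0.127, near the 0.113 of the lowest marker outside these chromosomes. On chromosome 1 they were C25516756T with 10 of 72 reads (0.139, 0.0772 to 0.237), G23950869A (0.141), G23652129A (0.157), C25561596T (0.162) and G22631164A (0.167). On chromosome 3 they were G26242729A with 9 of 71 reads (0.127, 0.0681 to 0.224), G27489226A (0.133), G4597543A (0.137), G27515492A (0.149) and G27967134A (0.149). Of these 10 sites, 7 were of the majority type of their chromosome, and the other 3 were G-to-A sites of chromosome 1. Their variant qualities ran from 30.5 to 92.5, against a median of 217 over the 294 markers. How far the quality minimum of 25 shaped the lower end of the frequencies was not tested.

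Markers below 0.3 were gathered in a few stretches. There were 30 on chromosome 1 (22.4%) and 29 on chromosome 3 (18.1%), against 9.21% of all 1390 markers and 6.30% of the 1096 outside these chromosomes. Of the 59, 49 (83.1%) lay in 4 stretches that together held 109 of the 294 markers: from 19 to 25 Mb and from 25 to 28 Mb on chromosome 1, and from 3.5 to 7 Mb and from 25 to 31 Mb on chromosome 3. The bounds of these stretches were set by eye after the values were seen. In the bins of 5 Mb counted from position 1, chromosome 1 had medians of 0.653, 0.643, 0.677 and 0.643 up to 20 Mb, then 0.485 from 20 to 25 Mb and 0.377 from 25 to 30 Mb. Chromosome 3 had medians of 0.525, 0.528, 0.536, 0.534 and 0.538 up to 25 Mb and 0.348 from 25 to 30 Mb.

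The first stretch of chromosome 1, up to 19 Mb, formed a high block of C-to-T changes. The median of its 57 C-to-T markers was 0.676 (interquartile range 0.627 to 0.704), and 47 of them stood at 0.6 or more. The interval of 42 lay wholly above 0.5 and that of 1 wholly below. Their standard deviation was 0.0907, against 0.0595 for the counting of reads alone at one shared frequency. The interval of 48 of the 57 took in the block's median. Of the 9 others, C18746735T lay above it and 8 lay below it, 4 of which had 90 reads or more.

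The 10 G-to-A markers inside that block were split between levels. The 5 of the run from G2163540A to G2671821A had a median of 0.696, close to the C-to-T markers around them. The other 5 were all below 0.4: G504285A at 0.256, G653059A at 0.286, G6602710A at 0.332, G6938514A at 0.273 and G10178702A at 0.224. Coverage at these 5 was uneven, with 43, 35, 187, 22 and 107 reads, and their variant quality ran from 34.5 to 66.5. The part of depth in their low frequency was not tested. G504285A formed, with its neighbour C266945T at 0.769, the adjacent pair of opposite types that differed most on chromosome 1, by 0.513.

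Between 19 and 25 Mb on chromosome 1 the 2 types stood side by side at different levels. The median was 0.191 over the 16 G-to-A markers (interquartile range 0.175 to 0.225), and 15 of them were below 0.3. The 28 C-to-T markers had a median of 0.532 (0.462 to 0.577), and 1 of them, C24732525T at 0.224, was below 0.3. Every G-to-A interval lay wholly below 0.5, while the interval of 22 of the 28 C-to-T markers took in 0.5. The levels of the types overlapped at few sites, although the types alternated along the stretch.

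The standard deviation of the 16 G-to-A markers was 0.0652, against 0.0506 for the counting of reads alone. Leaving out 2 with a coverage of 90 reads or more, chosen after the values were seen, 14 remained with a standard deviation of 0.0428, against 0.0501 for counting alone, and the interval of all 14 took in their median of 0.191. The highest of them was G19931870A with 14 of 47 reads (0.298, 0.187 to 0.440) and the lowest G23950869A with 10 of 71. The exception at higher frequency was G21870471A, with 44 of 109 reads (0.404, 0.316 to 0.498). It lay 30 bases from C21870501T, which had 104 reads and stood at 0.423, and its other neighbour C21847613T stood at 0.390, the most alike pair of opposite types on the chromosome.

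The 28 C-to-T markers covered a wider range. Their standard deviation was 0.107, against 0.0634 for counting alone. C19025886T (0.706) and C19169745T (0.724), which lie before the first G-to-A marker of the stretch, were at the level of the high block. C19477854T (0.440), C19846689T (0.4) and C20078528T (0.429) followed, interleaved with 5 G-to-A markers between 0.169 and 0.298. A level of 0.6 or more came back at C21361312T, C21502202T, C21549221T and C23459273T.

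From 25 to 28 Mb on chromosome 1 the C-to-T type itself spread from 0.139 to 0.479. Of 15 C-to-T markers, 9 were below 0.3, with a median of 0.190 (0.139 to 0.276 from lowest to highest), and 6 were above, with a median of 0.409 (0.327 to 0.479). These sites were interleaved along the stretch, the low ones in groups of 2 or 3. C25561596T had 11 of 68 reads (0.162), its neighbour C25575748T 28 of 73 (0.384, 0.281 to 0.498), and the next, C25634578T, 15 of 79 (0.190, 0.119 to 0.290). The standard deviation over all 15 was 0.113, against 0.0528 for counting alone. Only 1 G-to-A marker lay in the stretch, G26447191A at 0.265. In the last stretch, from 28 Mb on, 7 C-to-T markers ran from 0.377 to 0.621 with a median of 0.514.

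**Figure D2:**
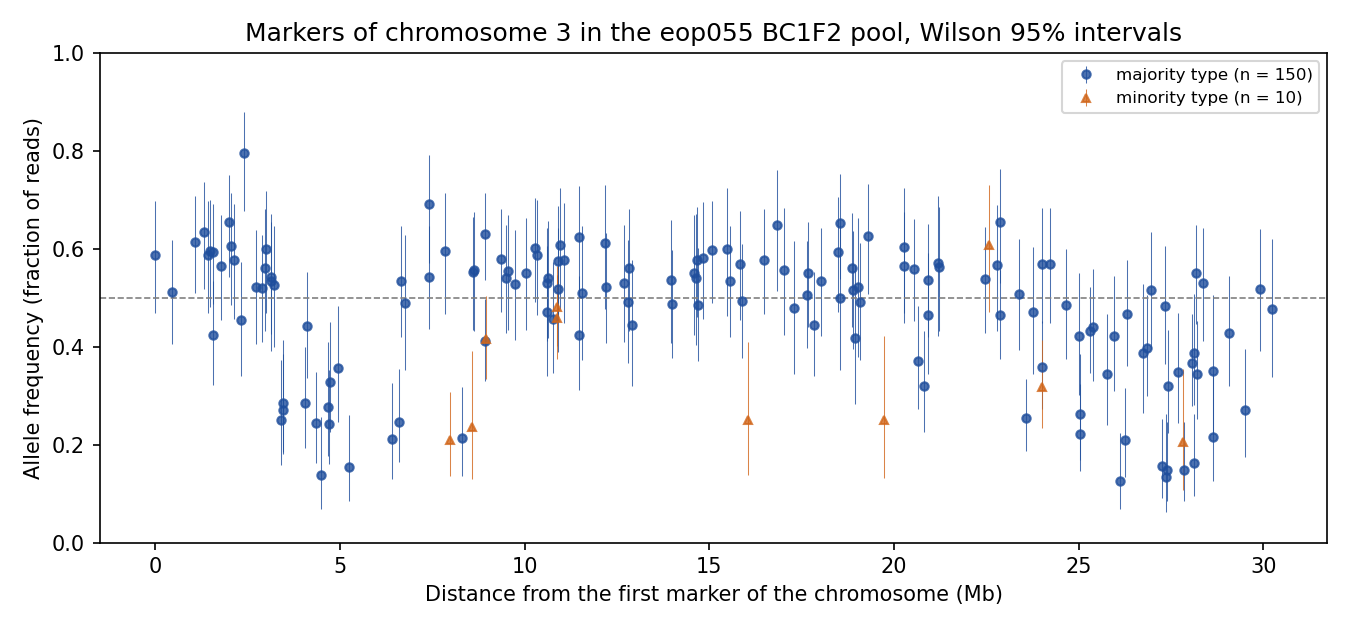
Allele frequency (fraction of reads with the changed base) of the 160 chromosome 3 markers against distance from the first marker in Mb, with Wilson 95% intervals. Blue circles are the 150 G-to-A markers and orange triangles the 10 C-to-T markers, and the dashed line is at 0.5. The circles lie above 0.4 at first, drop to a low block, return to a long level just above 0.5 and spread again towards the end.

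Chromosome 3 began at a level just above 0.5 and dropped sharply within one run of G-to-A changes. Up to 3.5 Mb all its 21 markers were G-to-A, with a median of 0.578 (interquartile range 0.525 to 0.6) and none was below 0.4. From 3.5 to 7 Mb all its 16 markers were G-to-A again, with a median of 0.275 (0.244 to 0.335), with 11 below 0.3. The last marker before the drop, G3324862A, had 31 of 59 reads (0.525, 0.4 to 0.647), and the first after it, G3539119A, had 15 of 60 (0.25, 0.158 to 0.372). Frequency therefore changed by 0.275 between sites 0.214 Mb apart, without a change of type.

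The return lay over a shorter distance. G6708775A had 19 of 77 reads (0.247, 0.164 to 0.354) and G6782313A, 0.0735 Mb further on, had 38 of 71 (0.535, 0.420 to 0.646). Of the 14 markers from G3539119A to G6708775A, 3 stood at 0.3 or more, with a median of 0.356, and G4244312A at 0.442 lay between G4178772A at 0.286 and G4475533A at 0.244. All 16 markers from 3.5 to 7 Mb had a coverage under 90 reads, and their median coverage was 65.5 reads, against 68 in the 21 markers before it.

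The long stretch from 7 to 25 Mb held 90 of the 160 markers, most of them just above 0.5. Over all 90 the standard deviation was 0.102, against 0.0626 for counting alone, and 10 markers were below 0.4, 5 of each type. Its 81 G-to-A markers had a median of 0.540 (interquartile range 0.492 to 0.576), and the interval of 74 took in that median. The interval of 68 took in 0.5, that of 7 lay above it and that of 6 below. The standard deviation of the 81 was 0.0821, against 0.0623 for counting alone. With their 5 markers of 90 reads or more left out, it was 0.0732, against 0.0631 for counting alone. The clearest exception of ordinary depth was G8434745A, with 16 of 75 reads (0.213, 0.136 to 0.319), next to C8115548T, with 18 of 86 (0.209, 0.137 to 0.307). These formed the most alike adjacent pair of opposite types on the chromosome, although both were low. G8434745A lay 37 bases and C8115548T 119 bases from a site listed in the progenitor. Of the 149 markers of chromosome 3 under 90 reads, 4 lay within 1 kb of such a site.

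The C-to-T markers of chromosome 3 were few, scattered and of uneven depth. C8115548T (0.209, 86 reads), C8685656T (0.237, 38 reads), C16163641T (0.25, 36 reads), C19862454T (0.25, 32 reads) and C27953798T (0.205, 39 reads) were below 0.3. C24122710T stood at 0.317 with 101 reads. C9088070T (0.416, 125 reads), C10987116T (0.482, 139 reads) and C10987138T (0.460, 124 reads) were all deep. C22691765T (0.608, 51 reads) was the only one above 0.5. The largest step between adjacent markers of opposite type, 0.387, lay between C8115548T and G7967725A, which stood at 0.596.

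From 25 to 31 Mb the G-to-A markers of chromosome 3 spread from 0.127 to 0.551, with low and higher sites interleaved and no clear gap at 0.3. Of 32 G-to-A markers, 11 were below 0.3 with a median of 0.162 (lowest 0.127, highest 0.271), and 21 were at 0.3 or more with a median of 0.422 (0.319 to 0.551). The standard deviation was 0.131, against 0.0587 for counting alone. G27489226A had 6 of 45 reads (0.133, 0.0626 to 0.262), and its neighbour G27476311A, 12.9 kb before it, had 30 of 62 (0.484, 0.364 to 0.606). None of the 33 markers of the stretch stood at 0.6 or more.

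Adjacent markers of opposite type differed more in allele frequency than adjacent markers of the same type at the median, over pairs up to 1 Mb apart. On chromosome 1 the median absolute difference was 0.292 over 27 opposite-type pairs (interquartile range 0.210 to 0.359) and 0.0617 over 104 same-type pairs (0.0242 to 0.149). On chromosome 3 it was 0.149 over 18 opposite-type pairs (0.0455 to 0.297) and 0.0786 over 138 same-type pairs (0.0361 to 0.152). The 95% interval of the opposite-type median on chromosome 1 was 0.215 to 0.334, against 0.0423 to 0.083 for same-type pairs. The opposite-type interval on chromosome 3 was 0.0418 to 0.315, against 0.0606 to 0.0904, and so took in the same-type median. A difference of 0.3 or more was found in 13 opposite-type (48.1%) and 3 same-type pairs (2.88%) of chromosome 1. On chromosome 3 it was found in 5 of each, or 27.8% of opposite-type and 3.62% of same-type pairs. Outside these chromosomes the shares were 10.6% and 6.17%, and on chromosome 8 they were 60.7% and 15.2%. The opposite-type pairs of chromosome 3 rested on 10 C-to-T markers. Those 5 with large differences each held C8115548T, C8685656T, C16163641T or C19862454T. C8685656T, C16163641T and C19862454T had 38, 36 and 32 reads and variant qualities of 42.5, 25.5 and 46.5. Pairs share markers and neighbouring markers are inherited together, so these are descriptions.

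The C-to-T marker was the higher one in 25 of the 27 opposite-type pairs of chromosome 1, and the G-to-A marker in 13 of the 18 of chromosome 3. In each case that is the majority type of the chromosome. The 2 frequencies of a pair summed to a median of 0.744 on chromosome 1 (from 0.413 to 1.36) and 0.816 on chromosome 3 (from 0.354 to 1.17). By bins of 5 Mb with at least 3 markers of each type, the type medians summed to 1.21 from 0 to 5 Mb, 0.860 from 15 to 20 Mb and 0.725 from 20 to 25 Mb on chromosome 1, and to 0.775 from 5 to 10 Mb on chromosome 3. A change on one parental copy and a change on the other cannot both exceed the copies available, so their frequencies sum to at most 1, whereas changes on the same copy can sum to more. The sum stayed under 1 in 3 of these 4 bins and passed it in the bin that holds the G-to-A run at 2.16 to 2.67 Mb. The medians of a bin can join sites at different places. From 15 to 20 Mb the 5 G-to-A markers all lay between G19697291A and G19970854A. Most of the 18 C-to-T markers of that bin lay before them, and C19846689T, which lay among them, stood at 0.4. A sum under 1 can also come from changes that share a copy, and which copy a site lies on was not tested, since the list gives no link between reads of different sites.

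The same comparison elsewhere gave 0.0987 over 208 opposite-type pairs and 0.0696 over 794 same-type pairs. By chromosome the opposite-type median ran from 0.0578 on chromosome 2 to 0.330 on chromosome 8, and on chromosome 5, where the types were most often mixed, it was 0.0708 over 82 pairs, against 0.0684 for 142 same-type pairs. The difference between chromosomes was not tested.

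**Figure D3:**
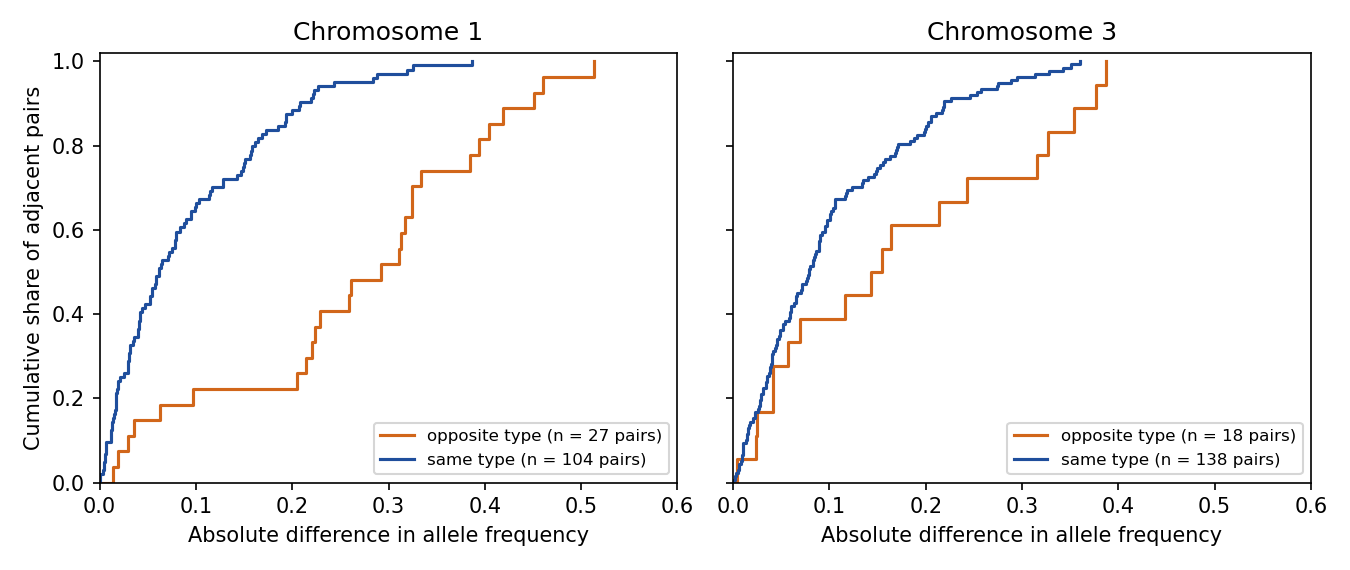
Cumulative share of adjacent marker pairs up to 1 Mb apart by absolute difference in allele frequency, for opposite-type pairs (orange) and same-type pairs (blue), on chromosome 1 (left, 27 and 104 pairs) and chromosome 3 (right, 18 and 138 pairs). The orange line lies to the right of the blue one over most of the range, and the 2 are further apart on chromosome 1.

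Depth moved with frequency at a minority of markers. Of the 294, 24 had a coverage of 90 reads or more, with a median allele frequency of 0.428, against 0.532 in the 270 under 90 reads. In the first stretch of chromosome 1, the 6 C-to-T markers of 90 reads or more had a median of 0.512 (0.474 to 0.643), against 0.681 in the 51 others. In the stretch from 7 to 25 Mb of chromosome 3, the 5 deep G-to-A markers had a median of 0.411 (0.254 to 0.630), against 0.547 in the 76 others. A site listed in the progenitor lay within 1 kb of 12 of the 24 deep markers (50.0%, 31.4 to 68.6%) and of 11 of the 270 others (4.07%, 2.29 to 7.15%). Another marker lay within 100 bases of 8 of the 24 and of 0 of the 270. These values were compared after the data were seen, and the part of depth in these frequencies was not tested.

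**Figure D4:**
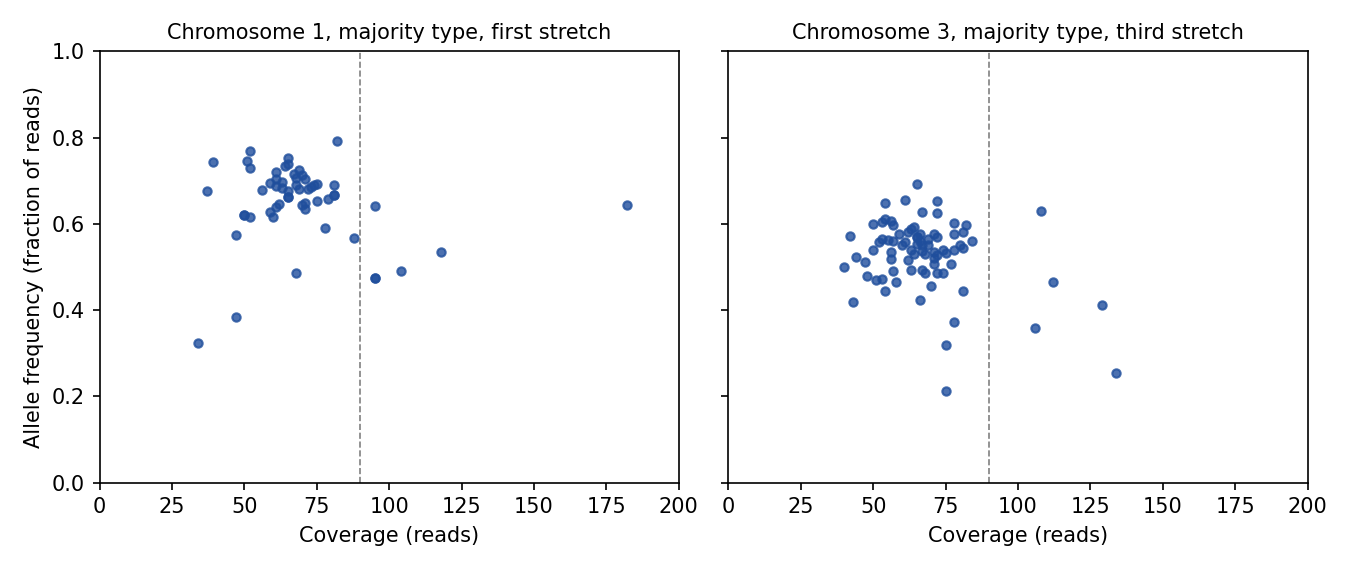
Allele frequency (fraction of reads) against coverage in reads for the 57 C-to-T markers of chromosome 1 up to 19 Mb (left) and the 81 G-to-A markers of chromosome 3 from 7 to 25 Mb (right). The dashed line is at 90 reads, and most points to its right lie below the main cloud.

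The low markers were deeper at the median than low G-to-T and C-to-A changes of the pool on these chromosomes. The 59 markers below 0.3 had a median coverage of 68 reads and a median variant quality of 93.5. The 113 pool-only G-to-T and C-to-A sites below 0.3 on the same chromosomes, which passed the same minimums, had a median coverage of 39 reads and a median quality of 39.5. Some low markers were like them: the 4 G-to-A ones up to 19 Mb of chromosome 1 had medians of 39 reads and 37.0. The 15 low G-to-A markers from 19 to 25 Mb had medians of 67 reads and 120. Low C-to-T markers of chromosome 3 had 32 to 39 reads, except C8115548T with 86. The 5 A-to-G and T-to-C sites below 0.3 had a median coverage of 87 reads and the 19 sites of the remaining changes one of 57 reads. From 19 to 25 Mb on chromosome 1, 16 of 44 markers were below 0.3, against 20 of 27 G-to-T and C-to-A sites and 0 of 8 A-to-G and T-to-C sites. From 7 to 25 Mb on chromosome 3, 6 of 90 markers were below 0.3, against 20 of 33 G-to-T and C-to-A sites and 4 of 9 A-to-G and T-to-C sites. Outside chromosomes 1 and 3 the 69 low markers had a median coverage of 71 reads and a median quality of 58.5.

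Variants present in both libraries gave a measure on the same stretches that the rule had not used. The progenitor carries them too, so they do not tell a mutagenised copy from an unmutagenised one. Their median coverage in the pool was 138 reads up to 19 Mb of chromosome 1, against 65 in the markers. From 7 to 25 Mb of chromosome 3 it was 115 against 66, and from 3.5 to 7 Mb 58 against 65.5. The part of depth in their frequencies was not tested. In the high block up to 19 Mb of chromosome 1, the median of 691 shared sites was 0.495 in the pool and 0.489 in the progenitor. From 25 to 28 Mb of chromosome 1, where the markers were low, it was 0.505 in the pool and 0.473 in the progenitor over 17 sites. From 19 to 25 Mb it was 0.431 in the pool and 0.416 in the progenitor over 53 sites. On chromosome 3 from 7 to 25 Mb it was 0.452 in both libraries over 256 sites. In the last stretch of chromosome 3, 28 shared sites had a median of 0.460 in the pool and 0.686 in the progenitor. In the low block from 3.5 to 7 Mb there were 5 shared sites, with medians of 0.508 in the pool and 0.544 in the progenitor. In 7 of the 8 stretches the medians of the 2 libraries lay within 0.0368 of each other, the last of chromosome 3 being the exception.

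At the quality minimum, 4 markers tied as nearest inside it, at a quality of 25.5, with coverage from 36 to 125 reads and frequencies from 0.205 to 0.416. They were C24732525T on chromosome 1 and C9088070T, C16163641T and C27953798T on chromosome 3. G24264740A on chromosome 3 just missed it, at 24.5, with 33 reads and 0.212. The lowest coverage of a marker was 22 reads, at G6938514A with a frequency of 0.273. Outside the minimums lay 78 sites by quality and 3 by coverage, the deepest of these 3 being C27792480T, with 3 reads and a frequency of 1.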

How the data were processed

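Genomic DNA of 1 pool (eop055BC1F2) and 1 progenitor library (pep1-1) was sequenced. The submitters' processing notes name Bowtie2, SAMtools and DESeq, with no version or role, and the sources used here do not give the build. The deposited lists give single-base variants. The deposited allele frequency is a fraction of reads. The deposited column headed reads is a variant quality score, and the one headed quality is a count of reads with the changed base: the headers appear exchanged, since the count over a whole number gave the listed frequency to within 5e-05 at all 14923 pool and 14029 progenitor sites. That whole number was taken as the coverage.

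The members, stretches and comparisons were chosen with earlier results of these data known. Sites were named by rule: ends of runs of at least 10 markers, the 5 highest and 5 lowest of each chromosome, sites nearest the minimums, and the most and least alike adjacent pairs of opposite type. Any other named site was chosen after its value was seen. Standard deviations are set beside the binomial value for the site coverages at the pooled frequency. Shares and frequencies carry Wilson 95% intervals. The code that finds runs and pairs was checked on simulated markers with known answers, which is no test of the values. Python 3.11.15, numpy 2.4.6, pandas 2.3.3, scipy 1.17.1 and matplotlib 3.10.9 were used.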

Additional observations from a re-analysis of the deposited data

How the results depend on the processing

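Of 182 values under the alternatives, 164 stayed near the main value (within 1.5 times for counts, within its 95% interval for others) and 18 moved. A change of direction was not scored. With no quality minimum the median fell to 0.480 on chromosome 1 and 0.479 on chromosome 3, markers below 0.4 on chromosome 1 rose to 66, G-to-A made up 87.4% on chromosome 3, and the same-type pair difference was 0.0852. With a frequency minimum of 0.2, chromosome 1 had 21 markers below 0.4 and 13.6% G-to-A. Runs on chromosome 1 numbered 13 at a length of 3 and 3 at a length of 10, and on chromosome 3 there were 5 with a quality minimum of 35. Markers above a threshold of 0.55 on chromosome 3 numbered 54, and above 0.65, 5. High bins on chromosome 1 numbered 2 with bins of 10 Mb. Low bins numbered 2 on chromosome 1 and 4 on chromosome 3 with bins of 2.5 Mb, 0 on both with 10 Mb, and 2 on chromosome 3 with bins started 2.5 Mb later. The opposite-type pair difference ran from 0.181 to 0.275. The cause was not tested beyond the alternatives' own construction. Leaving out markers of 90 reads or more, added after seeing the data, moved none of 7 stretch medians. Depth limits each marker to about 0.112 to each side. No paired analysis was possible because the pool and the progenitor had 1 library each.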

Other observations

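Other pool-only changes on the same chromosomes stood at other levels. On chromosome 1, 87 G-to-T and C-to-A sites had a median frequency of 0.257 at a median depth of 39 reads, and 26 A-to-G and T-to-C sites a median of 0.435 at 115 reads. On chromosome 3, 67 G-to-T and C-to-A sites had a median of 0.245 at 38 reads, and 13 A-to-G and T-to-C sites a median of 0.344 at 96 reads. Changes of G-to-A and C-to-T listed only in the progenitor numbered 20 on chromosome 1, with a median of 0.369, and 29 on chromosome 3, with a median of 0.385.

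Markers were spread unevenly. The largest gap between adjacent markers was 1.49 Mb on chromosome 1, from 5112688 to 6602242, and 1.25 Mb on chromosome 3, from 21337348 to 22591371, against median gaps of 144 kb and 122 kb.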
